A study of Homo sapiens with 6 samples.

Results

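The glycolysis and hypoxia response genes are a list of 40 genes, chosen by name, that encode the enzymes from hexokinase to lactate dehydrogenase, kinases that steer flux through them, the subunits of the hypoxia-inducible factors (HIFs) with their degradation machinery, and well-known HIF target genes. All 40 were found among the 58174 genes of the deposited table. Of these 40, 34 were among the 15069 genes that passed a filter on low values and were tested, while 6 were too low to test. The samples were KNS42 cells, an established line derived from a pediatric glioblastoma (GBM). Cells received either a control siRNA (siC, n = 3) or an siRNA pool against MSI1 (siMSI1, n = 3) and were harvested 72 h later for sequencing of poly(A)-selected RNA. No oxygen deprivation is named in the labels for either group, so the comparison asks how the glycolysis and hypoxia genes stood with and without MSI1, an RNA-binding protein of neural stem and progenitor cells, in routine culture.

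Glycolysis splits glucose into pyruvate in the cytosol, and lactate dehydrogenase then recycles the cofactor by turning pyruvate into lactate. Several steps are run by paralogous enzymes that differ in tissue distribution and regulation, and phosphofructokinase is the classical control point. HIF is a dimer of an oxygen-sensitive alpha subunit and the constitutive partner ARNT. With oxygen present, the EGLN prolyl hydroxylases mark the alpha subunit, VHL recruits a ubiquitin ligase to it and it is degraded. At low oxygen the alpha subunit escapes this and the dimer activates genes for glucose uptake, glycolysis, pH control and vessel growth, a program known from the hypoxic zones of GBM. Much of this control acts on protein, which was not measured here.

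The libraries held 13087025 to 18024080 reads on genes. Levels are in FPKM (fragments per kilobase of gene, scaled to a library size close to the reads of the library). MSI1, the target of the siRNA pool, was at 63.7, 61.9 and 66.9 FPKM in siC versus 12.1, 12.3 and 11.2 FPKM in siMSI1. The siMSI1 mean was 18.5% of the control mean (log2 fold change -2.43, limma adjusted p = 8.71e-06). Of the 7 neural and glioma markers, S100B and OLIG2 were listed at 0, and NES, VIM, SOX2 and CD44 were abundant but lower in every siMSI1 library than in any siC library. CD44 fell from a mean of 84.8 to 61.9 FPKM (limma adjusted p = 0.00303) and the astrocyte marker GFAP rose from 1.63 to 4.61 FPKM (limma adjusted p = 0.000905). Summed, the 7 markers were at 1450 to 1516 FPKM in siC against 1210 to 1314 FPKM in siMSI1. The 9 leukocyte, endothelial and epithelial markers were each under a mean of 0.5 FPKM, and together at 0.450 to 0.756 FPKM in siC against 0.985 to 1.34 FPKM in siMSI1, with CD68, PECAM1, CDH5 and KRT5 higher in siMSI1 without overlap. The part of these markers in the results below was not tested. The labels do not say whether libraries of a group came from separate cultures, so p-values measure the spread between these libraries, which may be technical. In bulk RNA, fewer cells of a type and less RNA per cell cannot be told apart.

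Upon MSI1 knockdown, 7 of the 34 tested glycolysis and hypoxia genes changed and 27 did not pass the test. PFKL, ENO2 and EGLN1 fell, and PFKM, PFKFB3, EGLN3 and CA12 rose (limma on log2(FPKM + 0.1), Benjamini-Hochberg adjusted over all tested genes, threshold 0.01). These were 20.6% of the 34 tested members, where 11.0% of all tested genes passed the same threshold, 5.83% as lower and 5.15% as higher in siMSI1. The members were chosen with earlier results of these data known, so these shares describe the list and test no excess. The median log2 fold change of the tested members was -0.01, with a range of -0.53 to 1.03, and that of all tested genes was 0.00. In 19 members (55.9%) the 3 siMSI1 values lay outside the range of the 3 siC values, 9 below and 10 above, against 42.8% of all tested genes. Of the 17 tested glycolytic enzymes 3 changed, of the 4 kinases 1, of the 6 tested HIF subunits and regulators 2, and of the 7 tested members grouped as HIF targets 1. The count of 7 depended on single libraries and fell to 1, CA12 alone, without siC replicate 1, to 2 without siC replicate 2, to 3 without siC replicate 3, to 3 without siMSI1 replicate 1 and to 4 without siMSI1 replicate 2, and was 6 without siMSI1 replicate 3. The share of all tested genes fell too, from 11.0% to 3.43%, 5.60% and 5.32% without siC replicates 1, 2 and 3. Without siMSI1 replicates 1, 2 and 3 it was 5.41%, 5.85% and 10.6%, so the loss of calls was not particular to the members.

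**Figure D1:**
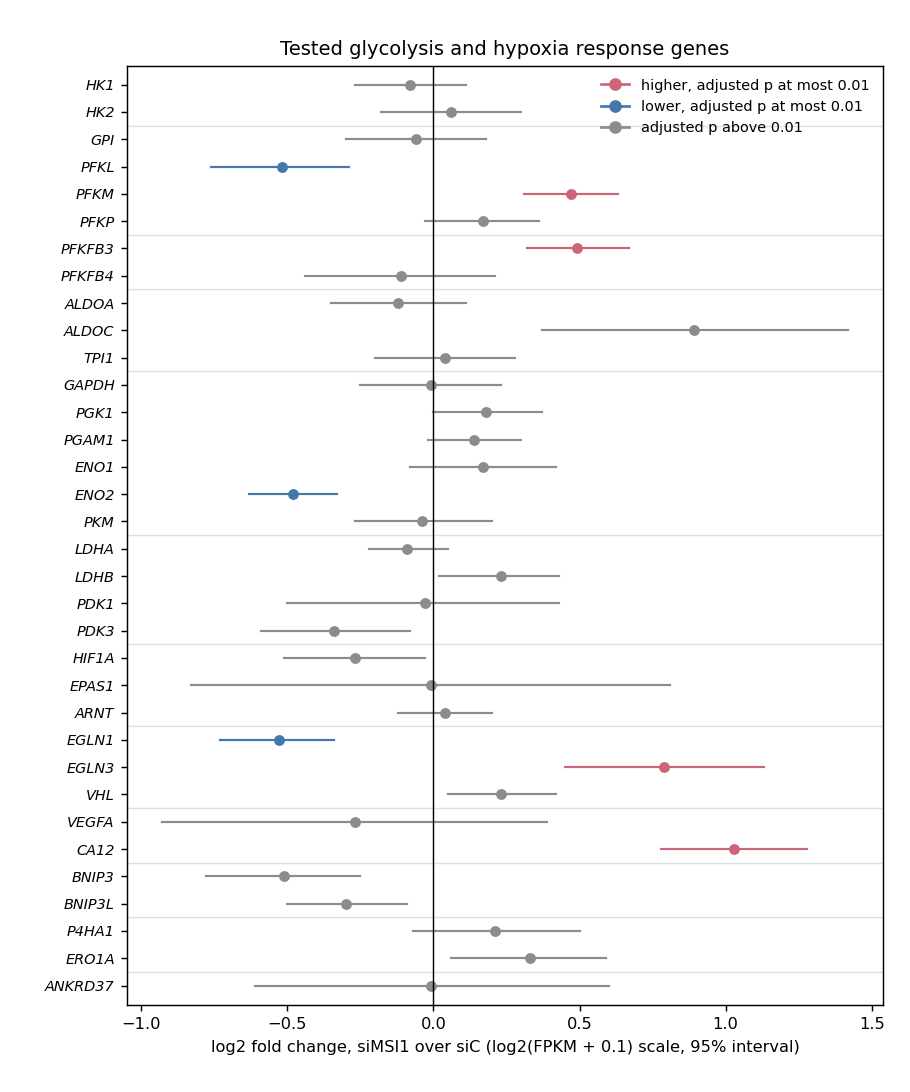
Log2 fold change (siMSI1 over siC, on the log2(FPKM + 0.1) scale, horizontal axis) of the 34 tested glycolysis and hypoxia genes, with bars for the 95% interval and colour for genes past the adjusted p of 0.01. CA12 at 1.03 stands farthest right and EGLN1 at -0.53 farthest left, and most of the glycolytic enzymes lie near 0.

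The enzymes that carry the bulk of glycolytic mRNA showed no difference past the threshold. GAPDH, which oxidises glyceraldehyde 3-phosphate, was the most abundant member, at 1804, 1703 and 1907 FPKM in siC and 1695, 1628 and 2084 FPKM in siMSI1. The groups overlapped completely, and siMSI1 replicate 3 held the highest value. Its log2 fold change was -0.01 with a 95% interval of -0.25 to 0.23 (limma adjusted p = 0.96). Triosephosphate isomerase TPI1 followed at mean levels of 519 ± 38.3 FPKM in siC and 537 ± 68.0 FPKM in siMSI1 (SD, n = 3), the enolase ENO1 at 492 ± 37.7 and 557 ± 74.9 FPKM, and the pyruvate kinase PKM at 395 ± 26.0 and 387 ± 49.2 FPKM. The aldolase ALDOA was at 184 ± 12.0 and 170 ± 21.1 FPKM, and glucose-6-phosphate isomerase GPI at 43.7 ± 1.94 and 42.2 ± 5.84 FPKM. In none of these 5 enzymes did the groups separate. Phosphoglycerate kinase PGK1 (97.7 ± 1.08 and 111 ± 10.7 FPKM) and phosphoglycerate mutase PGAM1 (226 ± 6.40 and 250 ± 15.0 FPKM) were higher in every siMSI1 library than in any siC library, with log2 fold changes of 0.18 and 0.14 that missed the threshold (limma adjusted p = 0.13 and 0.17).

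Summed over the 17 enzymes, the level was 4431, 4220 and 4651 FPKM in siC and 4321, 4324 and 5135 FPKM in siMSI1, or 1.68% to 1.84% and 1.69% to 1.98% of the reads on genes. The sums overlapped, and siMSI1 replicate 3 was above the other libraries. Of the 17 enzymes, 13 (76.5%) were highest in siMSI1 replicate 3 among the siMSI1 libraries and likewise 13 in siC replicate 3 among the siC libraries, compared with 39.1% and 36.1% of all tested genes.

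**Figure D2:**
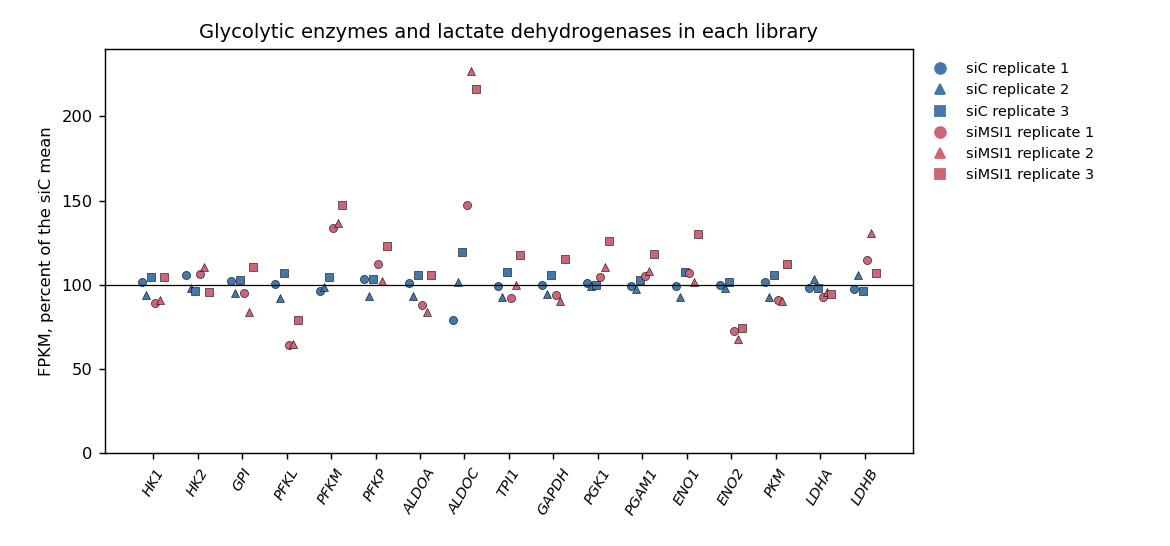
FPKM of each of the 17 glycolytic enzymes in each library, in percent of that gene's siC mean. Points of most enzymes lie around 100, while those of PFKL and ENO2 are low and those of PFKM and ALDOC high in the siMSI1 libraries.

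The 3 phosphofructokinase genes, whose products form tetramers that commit fructose 6-phosphate to glycolysis, moved apart. PFKL, the liver-type subunit (chromosome 21, 44300051 to 44327376, GRCh38), was at 13.7, 12.6 and 14.6 FPKM in siC versus 8.80, 8.88 and 10.8 FPKM in siMSI1. All siMSI1 libraries were below all siC libraries. PFKL fell to 69.6% of its control mean, by 0.52 on the log2 scale (SE 0.102, limma adjusted p = 0.00934). PFKM, the muscle-type subunit (chromosome 12, 48105139 to 48146404), was at 16.9, 17.3 and 18.3 FPKM in siC versus 23.4, 23.9 and 25.8 FPKM in siMSI1. Here all siMSI1 libraries were the higher ones. PFKM rose to 139% with a log2 fold change of 0.47 (SE 0.069, limma adjusted p = 0.00283). PFKP, the platelet-type subunit and by far the most abundant of the 3, was at 113 ± 6.20 FPKM in siC and 126 ± 11.4 FPKM in siMSI1, and its groups overlapped (log2 fold change 0.17, limma adjusted p = 0.19).

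As a share of the summed FPKM of the 3 genes, PFKL made up 9.36%, 9.30% and 9.81% in siC and 5.55%, 6.01% and 6.20% in siMSI1. PFKM made up 11.5%, 12.8% and 12.3% in siC and 14.7%, 16.2% and 14.8% in siMSI1. Both shares separated the groups without overlap, with mean differences of -3.57 and 3.03 percentage points, whereas the PFKP share was 78.3% and 78.9%. An exact two-sided permutation test of 3 against 3 libraries cannot go below p = 0.1, the value both shares reached (0.22 after Benjamini-Hochberg adjustment over the 13 shares compared). The call of PFKL held without siMSI1 replicate 3 (limma adjusted p = 0.00287) but without each other library the adjusted p was 0.0158 to 0.0401, and over all 17 alternatives it ran from 4.34e-09 to 0.0401. With all libraries kept, the PFKL call was also lost under median centring (limma adjusted p = 0.0152), quantile normalization (0.0110), no filter (0.0308) and plain moderation (0.0275), and that of PFKM under plain moderation (0.0124). The call of PFKM was lost without siC replicate 1 (limma adjusted p = 0.0206), siC replicate 2 (0.0126) or siMSI1 replicate 2 (0.0101), within a range of 6.74e-09 to 0.0206 over the alternatives.

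PFKFB3 encodes a bifunctional enzyme that makes fructose 2,6-bisphosphate, the strongest allosteric activator of phosphofructokinase, and is itself a HIF target. The gene (chromosome 10, 6144934 to 6254644) was at 10.5, 10.3 and 11.0 FPKM in siC versus 16.0, 13.9 and 15.0 FPKM in siMSI1. Every siMSI1 library exceeded every siC library. PFKFB3 rose to 141% with a log2 fold change of 0.49 (SE 0.076, limma adjusted p = 0.00362). The call was lost without siC replicate 1 (limma adjusted p = 0.0223), siC replicate 2 (0.0154), siC replicate 3 (0.0116) or siMSI1 replicate 1 (0.0155), with no filter (0.0121) and with plain moderation (0.0135), within a range of 3.34e-08 to 0.0223 over the alternatives. Its relative PFKFB4 was lower, at 2.44 ± 0.162 FPKM in siC and 2.26 ± 0.356 FPKM in siMSI1, and did not pass the test (log2 fold change -0.11, limma adjusted p = 0.59).

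Among the enolases, the neuron-enriched ENO2 fell while the ubiquitous ENO1 gave no change past the threshold. ENO2 (chromosome 12, 6913745 to 6923698) was at 23.0, 22.5 and 23.4 FPKM in siC versus 16.7, 15.6 and 17.1 FPKM in siMSI1. The libraries of each group lay close together and the groups were well apart. ENO2 fell to 71.7%, by 0.48 on the log2 scale (SE 0.064, limma adjusted p = 0.00198). Its share in the summed enolase FPKM was 4.47% ± 0.245 in siC and 2.90% ± 0.267 in siMSI1 (SD, n = 3). The exact permutation p of this share was 0.1, the smallest 3 against 3 allow, and 0.22 after Benjamini-Hochberg adjustment over the 13 shares. For ENO1 the log2 fold change was 0.17 with a 95% interval of -0.08 to 0.42 (limma adjusted p = 0.29). The ENO2 call was lost without siC replicate 1 (limma adjusted p = 0.0154) or siC replicate 3 (0.0107), within a range of 3.51e-08 to 0.0154 over the alternatives.

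**Figure D3:**
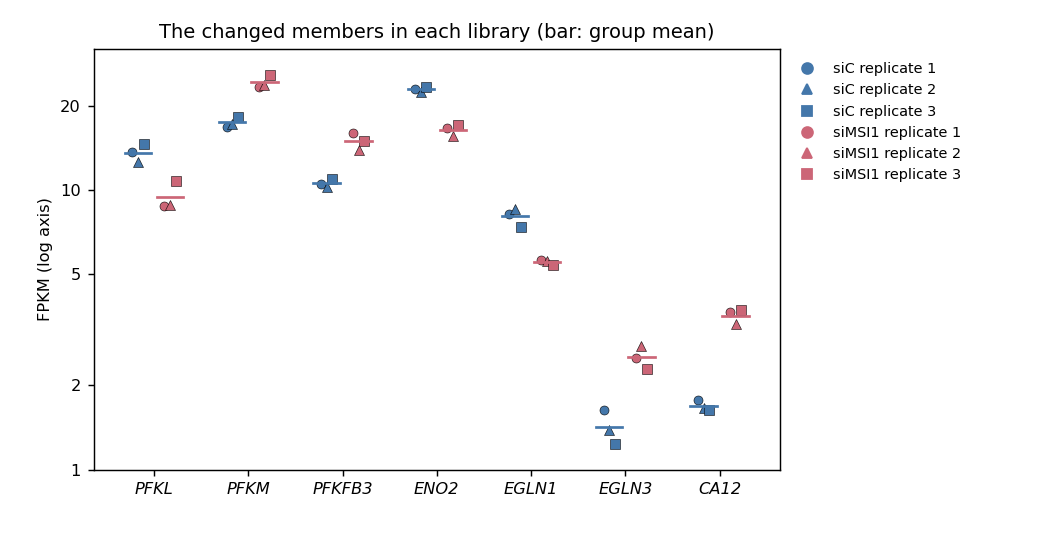
FPKM per library (log axis) of the 7 changed genes, with points for the 3 siC and the 3 siMSI1 libraries and a bar at each group's mean. In each of the 7 genes the points of siC and siMSI1 do not overlap, with EGLN3 the lowest at means of 1.42 and 2.52 FPKM and CA12 next at 1.69 and 3.56 FPKM.

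The remaining paralog pairs of the pathway showed smaller or less certain differences. Hexokinase HK1, which traps glucose in the cell, was at 68.3, 62.9 and 70.0 FPKM in siC and 59.7, 61.1 and 70.1 FPKM in siMSI1, and the inducible HK2 was at 3.18, 2.94 and 2.89 FPKM and 3.20, 3.33 and 2.88 FPKM. Both overlapped between groups (limma adjusted p = 0.53 and 0.71). The brain-type aldolase ALDOC was low, at 0.661, 0.850 and 0.997 FPKM in siC and 1.23, 1.90 and 1.81 FPKM in siMSI1, from 29 to 45 and 53 to 76 reads. Its siMSI1 values were all higher, with a log2 fold change of 0.89 (SE 0.226) that missed the threshold (limma adjusted p = 0.0251).

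For the lactate dehydrogenases, the M subunit gene LDHA was at 67.6, 71.3 and 67.6 FPKM in siC and 63.8, 65.7 and 64.9 FPKM in siMSI1. The H subunit gene LDHB, the more abundant of the pair, was at 355, 386 and 352 FPKM in siC and 417, 476 and 391 FPKM in siMSI1. LDHA was lower and LDHB higher in every siMSI1 library, although neither gene passed the test (log2 fold change -0.09 and 0.23, limma adjusted p = 0.32 and 0.0961). The LDHB share of the summed FPKM was 84.1% ± 0.273 in siC and 86.8% ± 1.07 in siMSI1. Its exact permutation p was 0.1, the smallest possible, and 0.22 after Benjamini-Hochberg adjustment over the 13 shares. Of the pyruvate dehydrogenase kinases, which keep pyruvate out of the mitochondrial oxidation pathway, PDK3 was at 3.62, 3.06 and 3.12 FPKM in siC and 2.52, 2.43 and 2.71 FPKM in siMSI1. All siMSI1 libraries were lower but PDK3 missed the threshold (log2 fold change -0.34, SE 0.110, limma adjusted p = 0.0577). PDK1, a widely used HIF target, was low at 0.838 and 0.820 FPKM on average, with a 95% interval of its log2 fold change from -0.50 to 0.43.

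**Figure D4:**
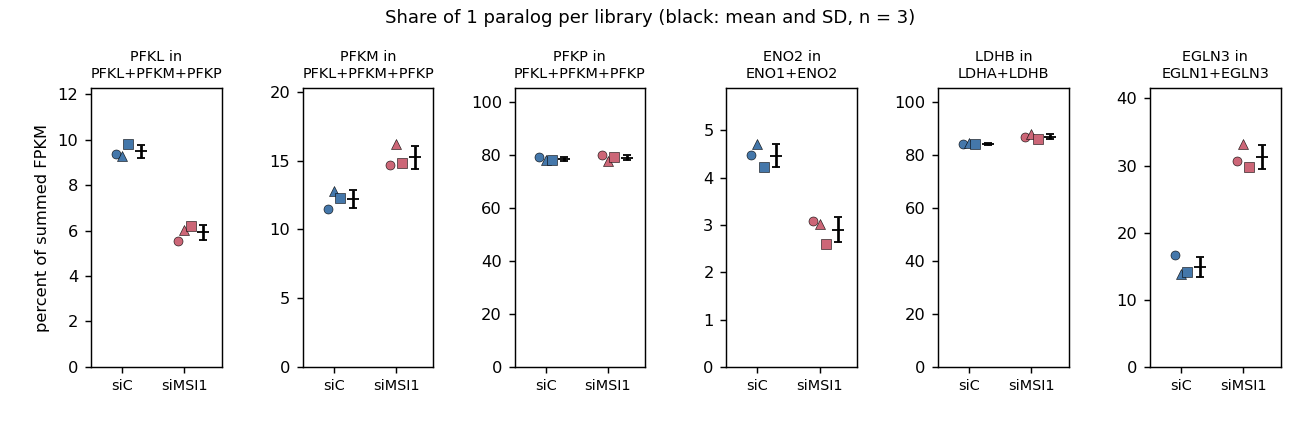
Share of PFKL, PFKM and PFKP in the summed phosphofructokinase FPKM, of ENO2 in the enolases, of LDHB in the lactate dehydrogenases and of EGLN3 in EGLN1 and EGLN3, in percent per library, with mean and SD of each group (n = 3). The PFKL and ENO2 shares are lower, the PFKM, LDHB and EGLN3 shares higher in siMSI1 without overlap, and the PFKP shares overlap.

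The HIF subunits themselves did not pass the test. HIF1A, the main alpha subunit, was at 17.7, 18.4 and 16.2 FPKM in siC and 15.5, 15.7 and 12.4 FPKM in siMSI1. Every siMSI1 value was below every siC value, but the log2 fold change of -0.27 (95% interval -0.51 to -0.03) missed the threshold (limma adjusted p = 0.0988). EPAS1, which encodes HIF-2 alpha and is studied as a stemness factor in glioma, was near the filter at 0.512, 0.689 and 0.343 FPKM in siC and 0.557, 0.533 and 0.401 FPKM in siMSI1, from 36 to 91 reads a library. Its groups overlapped, and the 95% interval of its log2 fold change, was wide, at -0.83 to 0.81. ARNT, the shared partner, was at 10.9 ± 0.484 and 11.2 ± 0.346 FPKM with a log2 fold change of 0.04 (95% interval -0.12 to 0.20).

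The prolyl hydroxylases EGLN1 and EGLN3 changed in opposite directions. EGLN1, the principal oxygen sensor of the pathway, also called PHD2 (chromosome 1, 231363751 to 231422287), was at 8.24, 8.58 and 7.41 FPKM in siC versus 5.63, 5.58 and 5.40 FPKM in siMSI1. The siMSI1 libraries were all lower and nearly equal. EGLN1 fell to 68.5%, by 0.53 on the log2 scale (SE 0.082, limma adjusted p = 0.00361). EGLN3, or PHD3 (chromosome 14, 33924227 to 34462774), was at 1.64, 1.39 and 1.23 FPKM in siC versus 2.50, 2.77 and 2.29 FPKM in siMSI1. All siMSI1 libraries were above all siC libraries. EGLN3 rose to 177% with a log2 fold change of 0.79 (SE 0.148, limma adjusted p = 0.00789), from 130 to 185 reads in siC against 242 to 271 in siMSI1.

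The EGLN3 share of the summed FPKM of the pair was 16.6%, 13.9% and 14.2% in siC and 30.7%, 33.2% and 29.8% in siMSI1. The groups were separated by far more than the spread within either, with a mean difference of 16.3 percentage points. The exact permutation p was 0.1, the smallest possible, and 0.22 after Benjamini-Hochberg adjustment over the 13 shares. EGLN1 stayed the more abundant gene of the pair in each library. VHL, the substrate receptor of the ubiquitin ligase, was the highest of the 6 listed HIF subunits and regulators at 23.2, 25.7 and 27.7 FPKM in siC and 30.1, 28.8 and 31.1 FPKM in siMSI1. Its siMSI1 values were all higher, but it missed the threshold (log2 fold change 0.23, SE 0.080, limma adjusted p = 0.0681). The EGLN1 call was lost without siC replicate 1 (limma adjusted p = 0.0238), siC replicate 2 (0.0155), siMSI1 replicate 1 (0.0140) or siMSI1 replicate 2 (0.0134), and the EGLN3 call whichever library was left out (0.0110 to 0.0309), within ranges over the alternatives of 5.68e-08 to 0.0238 and 2.71e-07 to 0.0309. Both calls were also lost with no filter (limma adjusted p = 0.0116 and 0.0234) and with plain moderation (0.0108 and 0.0128).

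Of the 13 members grouped as HIF targets, 7 were high enough to test and 1 changed. The group is not every HIF target on the list, so its count does not cover all HIF targets that changed. PFKFB3, which rose, and PDK1, for example, were counted with the kinases. Members of the other groups, the prolyl hydroxylases and enzymes included, were not sorted into HIF targets and others. CA12 encodes a membrane-bound carbonic anhydrase that handles acid outside the cell (chromosome 15, 63321378 to 63381846). It was at 1.78, 1.66 and 1.64 FPKM in siC versus 3.65, 3.31 and 3.72 FPKM in siMSI1, from 173 to 219 and 317 to 393 reads. The siMSI1 libraries were all far above the siC libraries. CA12 rose to 210% with a log2 fold change of 1.03 (SE 0.107, limma adjusted p = 0.000752), the largest change among the tested members. It stayed past the threshold under all 17 alternatives, each library left out included, with limma adjusted p of 8.10e-11 to 0.00542. CA9, the carbonic anhydrase most used as a hypoxia marker, had 1, 0 and 0 reads in siC and 6, 2 and 2 reads in siMSI1, at or near the floor of 3 reads, and no fold is given.

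The mitophagy receptors leaned the other way without passing the test. BNIP3 was at 8.07, 8.57 and 7.88 FPKM in siC and 5.07, 6.73 and 5.40 FPKM in siMSI1, and BNIP3L, the most abundant of the 13 listed HIF targets, at 15.3, 17.1 and 14.2 FPKM and 12.6, 13.4 and 11.8 FPKM. In both genes every siMSI1 library was below every siC library. The log2 fold change was -0.51 (SE 0.113, limma adjusted p = 0.0149) for BNIP3 and -0.30 (SE 0.089, limma adjusted p = 0.0437) for BNIP3L. ERO1A, an oxidase for disulfide formation in the endoplasmic reticulum, was at 4.40, 4.39 and 3.82 FPKM in siC and 5.51, 5.80 and 4.61 FPKM in siMSI1. Here the siMSI1 libraries were higher, again short of the threshold (log2 fold change 0.33, SE 0.114, limma adjusted p = 0.0720).

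VEGFA, the vascular growth factor, was listed at only 0.611, 0.571 and 0.573 FPKM in siC and 0.461, 0.428 and 0.516 FPKM in siMSI1. The siMSI1 values were all lower, but the 95% interval of the log2 fold change ran from -0.93 to 0.39. The collagen prolyl hydroxylase P4HA1 (5.41 ± 0.387 and 6.33 ± 0.922 FPKM) and ANKRD37, a small ankyrin-repeat gene (0.696 and 0.689 FPKM on average), overlapped between the groups. The other 5 untested members also averaged under 0.5 FPKM. AK4, a mitochondrial adenylate kinase, had 21, 21 and 17 reads in siC and 6, 10 and 9 reads in siMSI1, and its 5 annotated pseudogenes held 16.7% as many reads as AK4 itself, which makes its low level uncertain. P4HA2, a long gene with more reads than the rest, had 44, 70 and 44 reads and 54, 49 and 60 reads, and the lysyl oxidase gene LOX 18, 7 and 13 reads and 14, 10 and 16 reads. The vasodilator peptide gene ADM had 2, 6 and 2 reads and 1, 4 and 5 reads, and the stress-response gene NDRG1 4, 9 and 5 reads and 0, 4 and 10 reads. Apart from AK4, the 2 groups overlapped in each of these.

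The binding core of HIF, ACGTG or GCGTG on either strand (CACGT or CACGC when read on the other), was looked up in the promoters of the members, since the list joins HIF targets with genes outside the pathway. RefSeq promoters on GRCh38.p14 of 300 bases, 250 before and 50 after the start site, matched 36 of the 40 members, and VHL, VEGFA, BNIP3L and NDRG1 had no entry. The core was in 29 of these 36 (80.6%), in 9 of 10 members grouped as HIF targets (90.0%) and in 5 of the 7 changed genes (71.4%), against 5980 of 9145 promoters of tested genes (65.4%). Unlike that background, the 36 and the 10 include the untested ADM, CA9, AK4, P4HA2 and LOX. HIF targets were listed because HIF is known to act on them, so their share is a description and no test. The 250 bases before the start site are shown for both prolyl hydroxylases, which moved apart, for CA12, the member with the largest change, and for PFKFB3, with each core in capitals. A core is a description of the letters and not a binding site.
EGLN1 (chr1:231422288-231422537, minus strand): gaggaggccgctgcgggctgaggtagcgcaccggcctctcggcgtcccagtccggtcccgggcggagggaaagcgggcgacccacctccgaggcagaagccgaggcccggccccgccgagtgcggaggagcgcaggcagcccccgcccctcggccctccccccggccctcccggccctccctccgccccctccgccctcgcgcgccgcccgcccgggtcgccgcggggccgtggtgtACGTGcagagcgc
EGLN3 (chr14:33951075-33951324, minus strand): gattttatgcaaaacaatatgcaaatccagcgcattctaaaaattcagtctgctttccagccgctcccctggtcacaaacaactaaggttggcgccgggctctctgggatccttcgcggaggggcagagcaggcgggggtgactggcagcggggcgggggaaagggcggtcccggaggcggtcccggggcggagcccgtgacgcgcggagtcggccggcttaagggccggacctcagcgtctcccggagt
CA12 (chr15:63381847-63382096, minus strand): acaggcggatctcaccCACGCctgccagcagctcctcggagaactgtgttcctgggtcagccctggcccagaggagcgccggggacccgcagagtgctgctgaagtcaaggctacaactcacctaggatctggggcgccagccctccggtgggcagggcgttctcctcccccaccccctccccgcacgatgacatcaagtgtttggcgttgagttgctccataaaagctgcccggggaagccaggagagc
PFKFB3 (chr10:6202682-6202931, plus strand): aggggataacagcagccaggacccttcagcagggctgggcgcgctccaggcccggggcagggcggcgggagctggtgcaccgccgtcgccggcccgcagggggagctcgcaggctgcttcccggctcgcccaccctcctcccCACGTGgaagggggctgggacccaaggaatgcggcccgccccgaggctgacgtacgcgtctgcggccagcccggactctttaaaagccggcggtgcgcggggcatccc
The EGLN1 window holds ACGTG close to its end, next to the start site, and the EGLN3 window holds none. CA12 has CACGC far upstream of its start site and a further core just after it, outside the printed bases. PFKFB3 has the palindrome CACGTG, in which the core overlaps itself on both strands. Of the changed genes, PFKM was the other without a core, but the promoter listed for it starts 3283 bases from its canonical start. No limit was set on this distance. It was 1627, 762 and 422 bases for PGAM1, P4HA2 and PFKP, which also had no core. For GAPDH, HK1 and GPI, which had a core, it was 747, 217 and 204 bases. Genes with a core lay among both those that fell (PFKL, ENO2, EGLN1) and those that rose (PFKFB3, CA12).

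MSI1 is known to bind GUAG in 3′UTRs, so the 3′UTR of the canonical transcript of each tested coding gene (GENCODE release 44, GRCh38) was searched for it, on the transcribed strand, as GTAG. It was found in 28 of 34 tested members (82.4%), with a median of 2.41 per kb, and in 8972 of 11260 tested coding genes (79.7%), with a median of 2.32 per kb. All 7 changed genes held it, with a median of 1.83 per kb. The motif is short, and its presence is no evidence of binding. The place nearest the stop codon of each changed gene follows with 12 bases to either side and GTAG in capitals, the 3 genes that fell before the 4 that rose.
PFKL (chr21:44327217-44327244, plus strand): tctacctggccgGTAGgctgctggcgcc
ENO2 (chr12:6923397-6923424, plus strand): tttcatgtggctGTAGatcccaagatga
EGLN1 (chr1:231366120-231366147, minus strand): taagtgccctgtGTAGaatttttttcat
PFKM (chr12:48145880-48145907, plus strand): agctccttttagGTAGaatttaacatga
PFKFB3 (chr10:6233793-6233820, plus strand): ctcttcaggaacGTAGatgttggggtgt
EGLN3 (chr14:33925487-33925514, minus strand): aaaatggaggtgGTAGatgccacagaga
CA12 (chr15:63326172-63326199, minus strand): aaggtgttctctGTAGctcaatctgcaa
There was 1 such place in the 3′UTR of each of PFKL, PFKM and ENO2, 2 in EGLN3, 5 in PFKFB3, 7 in EGLN1 and 9 in CA12. Per kb, EGLN1 at 2.64 lay above the median of tested coding genes, and the other 6 genes, from ENO2 at 1.11 to PFKL at 1.96, lay below it, whether they fell or rose.

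Overlapping genes were looked up because the libraries were strand-specific, while it is not stated whether the counting used strand. PFKM shares 516 exonic bases with SENP1 on the opposite strand, which had a log2 fold change of -0.04 and did not change. EGLN1 shares 3004 exonic bases with an unnamed gene on its own strand, which was not analysed here. PFKL, PFKFB3, ENO2, EGLN3 and CA12 share none. GAPDH overlaps an opposite-strand gene listed as AC006064.4 by 422 bases, at 445 FPKM in siC and 455 FPKM in siMSI1 on average, and 62 annotated GAPDH pseudogenes together held 0.282% as many reads as GAPDH.

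The pathways around the list behaved alike in that a minority of genes changed, in both directions, and 6 genes stand in 2 of the 3 further lists. These lists were also chosen with earlier results of these data known, so their shares are descriptive and test no excess. Among 46 other genes of glycolysis, the pentose phosphate pathway, glycogen and pyruvate use, 33 were tested and 7 changed, 3 lower and 4 higher, with a median log2 fold change of 0.01. These were 21.2%, beside 11.0% of all tested genes. The genes that fell were PGM1, which links glycogen to glycolysis (19.3 to 12.0 FPKM, log2 fold change -0.68, limma adjusted p = 0.00103), PGLS of the oxidative pentose phosphate branch (26.2 to 15.9 FPKM, -0.72, 0.00303) and the mitochondrial pyruvate carrier subunit MPC1 (32.4 to 22.3 FPKM, -0.53, 0.00503). Those that rose were RPIA (21.7 to 34.5 FPKM, 0.66, 0.00285) and transketolase TKT (199 to 286 FPKM, 0.52, 0.00659), both of the non-oxidative pentose phosphate branch, the ADP-dependent glucokinase ADPGK (11.0 to 15.3 FPKM, 0.47, 0.00185) and the pyruvate dehydrogenase subunit PDHB (18.7 to 26.0 FPKM, 0.47, 0.00728), which overlaps an antisense gene that also rose and is therefore uncertain. The glucose transporter SLC2A1, a HIF target, was at 22.9 and 19.9 FPKM and missed the threshold (limma adjusted p = 0.21).

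Of 24 other regulators of HIF, 23 were tested and 3 changed, a share of 13.0% that is near the 11.0% of all tested genes. EGLN2, the remaining prolyl hydroxylase of the family, rose from 1.56 to 2.57 FPKM (log2 fold change 0.70, limma adjusted p = 0.00881), as did CITED2, which competes with HIF for its coactivators (20.8 to 31.3 FPKM, 0.59, 0.00209), and MCM7 fell (136 to 106 FPKM, -0.36, 0.00900). The EGLN2 call was lost whichever library was left out (limma adjusted p = 0.0163 to 0.0330, within 3.78e-06 to 0.0330 over all alternatives) and under the replicate block (0.0101), and EGLN2 shares 2012 exonic bases with the RAB4B-EGLN2 readthrough gene on its strand. Among 52 other HIF targets, 33 were tested and 9 changed (27.3%, beside 11.0% of all tested genes), 3 lower and 6 higher, with a median log2 fold change of 0.12. The 8 with the largest changes were DDIT4, an mTORC1 inhibitor (6.44 to 18.6 FPKM, log2 fold change 1.51, limma adjusted p = 0.000230), VLDLR (9.83 to 17.2 FPKM, 0.80), EDN1 (5.15 to 8.62 FPKM, 0.73), heme oxygenase HMOX1 (8.69 to 14.3 FPKM, 0.71) and PPP1R3B (2.38 to 3.79 FPKM, 0.64), which rose, and ZNF395 (10.1 to 4.26 FPKM, -1.22), the transferrin receptor TFRC (41.7 to 23.1 FPKM, -0.85) and RBPJ (5.24 to 2.92 FPKM, -0.82), which fell. ZNF395 shares 2032 exonic bases with FBXO16 on the same strand (log2 fold change 0.46, limma adjusted p = 0.0724) and is uncertain. VLDLR shares 260 exonic bases with the opposite-strand VLDLR-AS1 (log2 fold change 0.61, limma adjusted p = 0.0219). VLDLR also shares 1100 such bases with an opposite-strand gene that was not analysed here, and is uncertain too. Of the 19 changed genes of the 3 lists, DDIT4, ZNF395, TFRC, VLDLR, HMOX1 and PGM1 passed the threshold under all 17 alternatives, and the other 13 lost it without siC replicate 1 (limma adjusted p = 0.0104 to 0.0496). Without siC replicate 1 the counts were 1 for the other glycolysis genes, 0 for the other regulators (8 at an unadjusted limma p under 0.05) and 5 for the other targets. Of all tested genes, 3.43% passed in that fit.

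**Figure D5:**
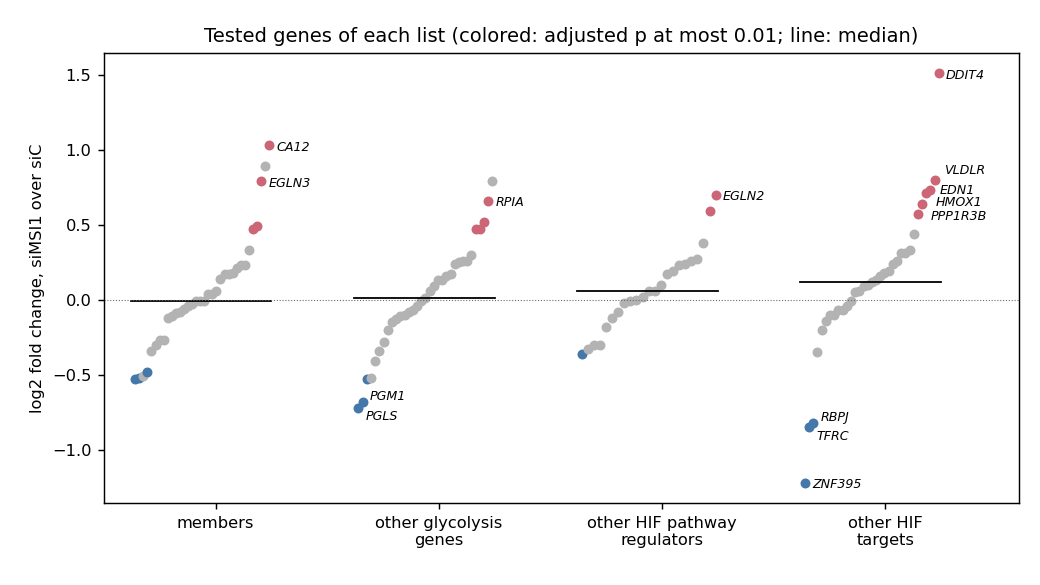
Log2 fold change (siMSI1 over siC, on the log2(FPKM + 0.1) scale) of each tested gene of the glycolysis and hypoxia list and of 3 further lists, with colour for genes past the adjusted p of 0.01 and a line at each median. Medians lie between -0.01 and 0.12, and changed genes lie on both sides of 0 in each list.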

How the data were processed

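RNA of KNS42 cells was sequenced after poly(A) enrichment and strand-specific library preparation. The authors trimmed reads with Cutadapt 1.14, aligned them to GRCh38 with HiSat2 2.1.0, counted them per gene with FeatureCounts 1.5.3 on an Ensembl annotation, and deposited FPKM for 58174 genes in 6 libraries. The deposited table also holds the authors' own comparison made with edgeR 3.18.1, as log2 fold changes, p-values and FDR, which was not used. Groups and replicate numbers were taken from the labels. The members and further lists were chosen with earlier results of these data known.

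The 15069 genes averaging 0.5 FPKM or more were fitted with limma 3.58.1 in R 4.3.3 on log2(FPKM + 0.1), by group, with eBayes (trend, robust), and Benjamini-Hochberg adjusted p-values were called at 0.01. A fold change on this scale understates that of low genes. The script was tested on simulated data. FPKM times gene length gave whole reads for all values above 0 (tolerance 0.01 reads), at 13087025 to 18024080 reads per library. The library size behind the FPKM was 0.977 (siMSI1 replicate 3) to 1.03 (siMSI1 replicate 1) times the reads on genes. For a 2 kb gene, 3 reads equal 0.0829 to 0.114 FPKM, a floor that covers counting error only. Paralog shares were compared by exact two-sided permutation tests (Python 3.11.15, numpy 2.4.6).

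Library values are given for members past the threshold and for those without overlap at an absolute log2 fold change of at least 0.3. They are also given for the highest member of most roles and for a few preset members (HIF1A, EPAS1, LDHA, LDHB, HK1, HK2 and GAPDH). PFKP, TPI1, P4HA1 and ANKRD37, each the highest of its role, are given in the text as group means only. VEGFA was added after its values were seen. Of further lists, up to 8 changed genes are named, and SLC2A1 was added after its values were seen. The 17 alternatives comprised other scalings, added values, filters, moderation, threshold, a replicate block, voom on recovered reads and each library left out. The FPKM table led to limma in place of a count test. Positions came from GENCODE release 44 on GRCh38, and promoters from RefSeq.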

Additional observations from a re-analysis of the deposited data

How the results depend on the processing

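Of the 7 changed genes, CA12 passed the threshold under all 17 alternatives and the other 6 lost it under some, and no fold change of a named gene turned its direction where it was called. The 7 changed members became 3 with no filter on low values, 2 with plain moderation, 16 with voom on reads with the replicate block, and 1 to 6 with a library left out. The 1655 changed genes overall became 792, 847 and 4974 under the same settings, 3787 at an adjusted p of 0.05, 2815 with voom on reads and 517 to 1603 with a library left out. The other glycolysis genes (7) gave 2, 2 and 17, then 11 at 0.05, 11 with voom and 1 to 6. The other HIF regulators (3) gave 1, 0 (limma, 10 at an unadjusted p under 0.05) and 9, then 8 at 0.05, 5 with voom and 0 to 3, and the other HIF targets (9) gave 5 with no filter, 16 with voom and the block, and 5 to 8. With reads not divided by gene length, the shares differed by -5.65 (PFKL), 4.25 (PFKM), 1.39 (PFKP), 0.245 (ALDOC), 4.19 (LDHB) and -0.710 (CA12) percentage points, and with quantile normalization that of ENO2 by -1.25. With a library left out, the difference was -3.71 to -3.38 for PFKL, 2.56 to 3.34 for PFKM, -1.70 to -1.42 for ENO2, 2.14 to 3.21 for LDHB and 15.3 to 17.1 for EGLN3. Same-numbered libraries of the groups correlated at -0.0661, 0.0783 and 0.0830 in their deviations. Those numbered 2 and 3 correlated best with their own number, and those numbered 1 did not. The labels give only the number, and such weak correlations cannot tell whether the libraries were paired. The replicate block gave 9 changed members, with BNIP3 and BNIP3L added, and 2250 changed genes. The cause of these moves was not tested. The 6 untested members were under the filter on FPKM and can show no change here.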
